A study of Mus musculus with 8 samples.

Results

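The nucleosomes that remain in condensing spermatids of H2A.L.2-less mice were compared with those of wild-type (WT) mice, position by position along the autosomes. Chromatin from testis cells enriched for condensing spermatids was digested with micrococcal nuclease (MNase), which cuts DNA between protein-bound stretches, and fragments of about 130 to 170 bp were sequenced. The authors called nucleosome positions in each library on the mm9 build, and each position has a summit (its centre), a summit value (the fragment coverage there, called height here) and a fuzziness score (how widely fragments scatter around the summit). The members were all summits on chromosomes 1 to 19, which came to 3852646 in the H2A.L.2-less list and 3748879 in the WT list, together 7601525 of the 36905351 autosomal positions in the 8 lists of the series. A summit with a summit of the other list at most 40 bp away was called matched, and any other unmatched.

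During spermiogenesis most histones are removed from the haploid genome and replaced, first by transition proteins and then by protamines, the small arginine-rich proteins that pack the sperm nucleus. H2A.L.2 is a testis-specific variant of histone H2A made late in this period, and the title of the series ties it to the loading of protamines through transition proteins. A position list shows where the nucleosomes that still protect DNA sit. It does not show which histones they hold, nor what share of the genome copies carry one.

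The groups were condensing spermatid nucleosomes of H2A.L.2-less mice and condensing spermatid nucleosomes of WT mice, with 1 library each. The other 6 lists, used here only for comparison, came from spermatocytes and round spermatids of either genotype and from small structures of condensing spermatids (fragments of about 40 to 80 bp), again with 1 library each. No difference between these libraries therefore has a replicate check, and no test was made. The labels give no strain, age, number of animals, purity of the cell fraction or construction of the H2A.L.2-less allele, and position lists hold no transcripts by which the cell type could be checked. Intervals are 95% Wilson intervals and cover counting error only, and SDs over the 19 autosomes describe spread along the genome, not between animals.

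Both lists had much the same profile. The median height was 192 in the H2A.L.2-less list and 200 in the WT list, and the tallest 1% began at 364 in the H2A.L.2-less list and at 376 in the WT list. The lowest height held by at least 1% of a list, a measure of the calling floor, was 168 with 506198 positions at it in the H2A.L.2-less list, and 172 with 183431 positions at it in the WT list. Only 1.34% of H2A.L.2-less summits and 1.25% of WT summits lay below it. The median fuzziness score was 54.3 ± 0.129 in the H2A.L.2-less list and 54.2 ± 0.118 in the WT list (SD over 19 autosomes), a difference smaller than that spread. That spread is between the autosomes of a list, and the difference between the lists on each autosome was not examined. Because the heights carry no common scale, log2 ratios of height between the lists use each height over the median of its own list. Where heights of both lists are given side by side, they are the deposited values, and these medians apply. Neighbours in a list were at least 100 bp apart, so no summit could have a pair of matches, and every match joined 1 H2A.L.2-less summit to 1 WT summit.

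The first question was how many nucleosome positions both genotypes had in common. The lists shared 1158761 positions, which is 30.1% of the H2A.L.2-less summits (interval 30.03% to 30.12%) and 30.9% of the WT summits (30.86% to 30.96%). These shares count the same pairs and differ only through the lengths of the lists. The background was the share matched after the other list had been moved by 5000 bp, and it was 16.3% for H2A.L.2-less summits and 16.7% for WT summits. Matches in place were thus 1.84 times the background for H2A.L.2-less summits and 1.85 times for WT summits. The larger part of both lists, 2693885 H2A.L.2-less and 2590118 WT summits, had no counterpart.

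The shared fraction varied little from one autosome to another. For H2A.L.2-less summits it lay between 28.2% on chromosome 18 and 32.4% on chromosome 7 (SD 1.15 percentage points), and for WT summits between 28.9% and 33.6% on the same chromosomes (SD 1.25 points). Autosomes dense in positions had the higher shares, and their backgrounds were higher as well. Above the background, the shares of H2A.L.2-less summits lay between 13.1 points on chromosome 11 and 14.8 points on chromosome 14, with an SD of 0.418 points. Those of WT summits lay between 13.4 points on chromosome 11 and 15.4 points on chromosome 14, with an SD of 0.453 points.

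**Figure D1:**
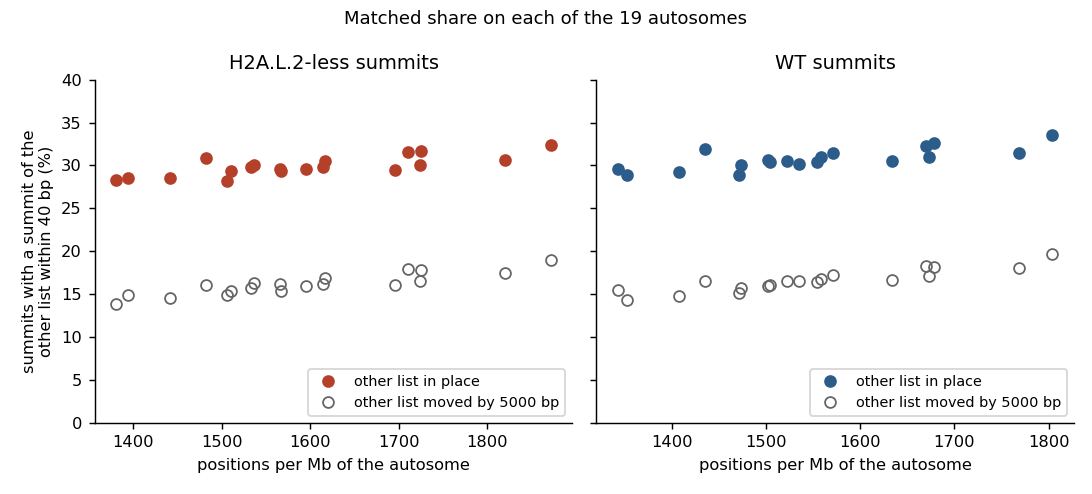
Share of summits matched within 40 bp on each of the 19 autosomes (filled points) and after the other list was moved by 5000 bp (open points), against the number of positions per Mb. H2A.L.2-less summits are on the left, WT summits on the right. Filled points lie at 28.2% to 33.6% and above every open point, and both kinds of point lie higher on autosomes with more positions.

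Within the match distance, small offsets were the most frequent. Of the matched pairs, 14.4% had their summits on the same base, 42.2% within 10 bp, 64.2% within 20 bp and 82.7% within 30 bp. Since about 95% of the summits lie on a 10 bp grid (94.9% of H2A.L.2-less and 95.5% of WT), offsets are resolved only to about 10 bp. The same base was shared by 4.35% of all H2A.L.2-less summits, against 1.67% with the WT list moved, and by 4.47% of all WT summits, against 1.71% with the H2A.L.2-less list moved.

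Many summits were not merely offset but stood alone. No WT summit lay within 140 bp, the width of a deposited position, of 1536364 H2A.L.2-less summits (39.9%). No H2A.L.2-less summit lay that close to 1452129 WT summits (38.7%). With the other list moved, these shares were 54.9% for H2A.L.2-less and 54.1% for WT summits. Long empty stretches were rare, as 2.84% of H2A.L.2-less and 2.88% of WT summits had no summit of the other list within 1000 bp.

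The distance curves between the lists showed the same layout from either side. The density of WT summits around H2A.L.2-less summits was 2.42 at the summit, relative to the mean at 800 to 1000 bp. It dropped to 0.877 at 90 bp and had a second peak of 1.17 at 180 bp, about 1 nucleosome repeat away. Around WT summits the density of H2A.L.2-less summits was 2.41 at offset 0, with 0.879 at 90 bp and a peak of 1.17 at 180 bp.

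**Figure D2:**
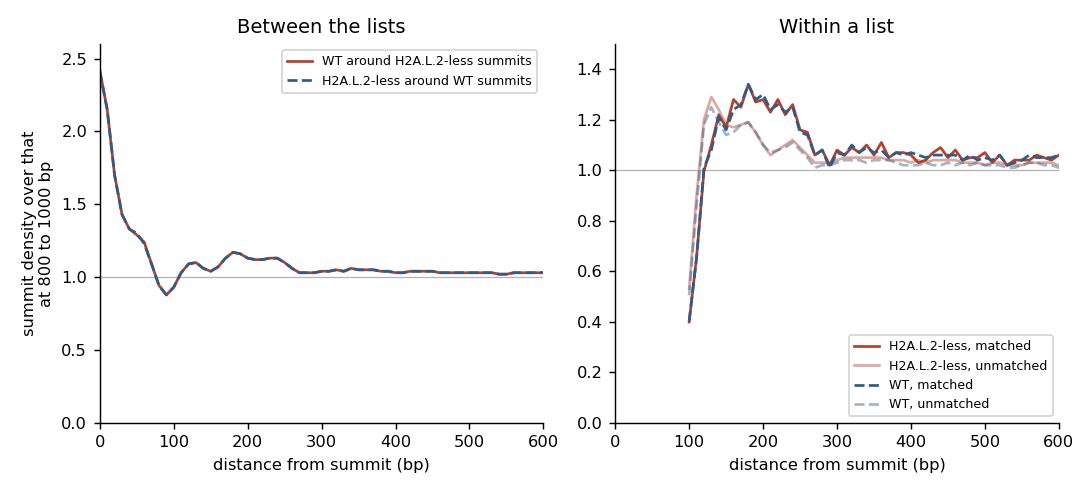
Density of summits against distance in bp, relative to the mean at 800 to 1000 bp. Left, the WT list around H2A.L.2-less summits and the H2A.L.2-less list around WT summits nearly coincide, with 2.42 around H2A.L.2-less and 2.41 around WT summits at offset 0, 0.877 and 0.879 at 90 bp, and 1.17 around either at 180 bp. Right, within each list: the density of matched summits around matched ones (dark) peaks at 180 bp with 1.34 in both genotypes. That of unmatched summits around unmatched ones (pale) peaks at 130 bp with 1.29 in H2A.L.2-less and 1.25 in WT.

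Matched summits were taller than unmatched ones, and by more than with a moved list. The median height was 204 for matched and 192 for unmatched H2A.L.2-less summits, a log2 ratio of 0.09 ± 0.02 (SD over 19 autosomes). It was 208 for matched and 196 for unmatched WT summits, a log2 ratio of 0.09 ± 0.01. The ratio was positive on 19 of 19 autosomes in both lists. The same split after the WT list was moved gave 0.03 for H2A.L.2-less summits, and the reverse move gave 0.00 for WT summits. Heights are whole multiples of 4, so these medians, and the ratios made from them, move only in coarse steps. The medians lie close because most summits are near the floor, and the means, which the tallest summits carry, stood further apart. They were 354.6 for matched and 202.1 for unmatched H2A.L.2-less summits, and 348.7 for matched and 207.2 for unmatched WT summits. Part of this gap was also met with the other list moved. The means were then 281.6 for matched and 241.4 for unmatched H2A.L.2-less summits, and 281.6 and 244.8 for WT summits.

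Along the height scale, the matched share climbed from about 1 in 4 summits near the floor to most of the tallest. At the floor itself 22.3% of H2A.L.2-less summits were matched, against a background of 15.0%. At 1 to 1.25 times the list's median height the share was 30.7% (background 16.3%), at 1.5 to 2 times 51.9% (19.3%) and at 2 to 5 times 74.0% (29.3%). Of the 1099 H2A.L.2-less summits of at least 20 times the median, 90.5% were matched (interval 88.7% to 92.1%, background 33.5%). These tall summits are few: 95.37% of the H2A.L.2-less list lies below 1.5 times its median.

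WT summits ran through the same steps. Their matched share was 22.9% at the floor (background 15.7%), 32.4% at 1 to 1.25 times the median (17.0%), 55.05% at 1.5 to 2 times (20.3%) and 74.98% at 2 to 5 times (29.99%). At 20 times and over it was 89.8% (33.3%). Summits recorded below the floor broke the order in both lists, with 26.5% matched in H2A.L.2-less and 27.5% in WT. The background was higher for tall summits too. It reached 37.1% in H2A.L.2-less and 36.8% in WT at 5 to 20 times the median, above the values at 20 times and over.

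**Figure D3:**
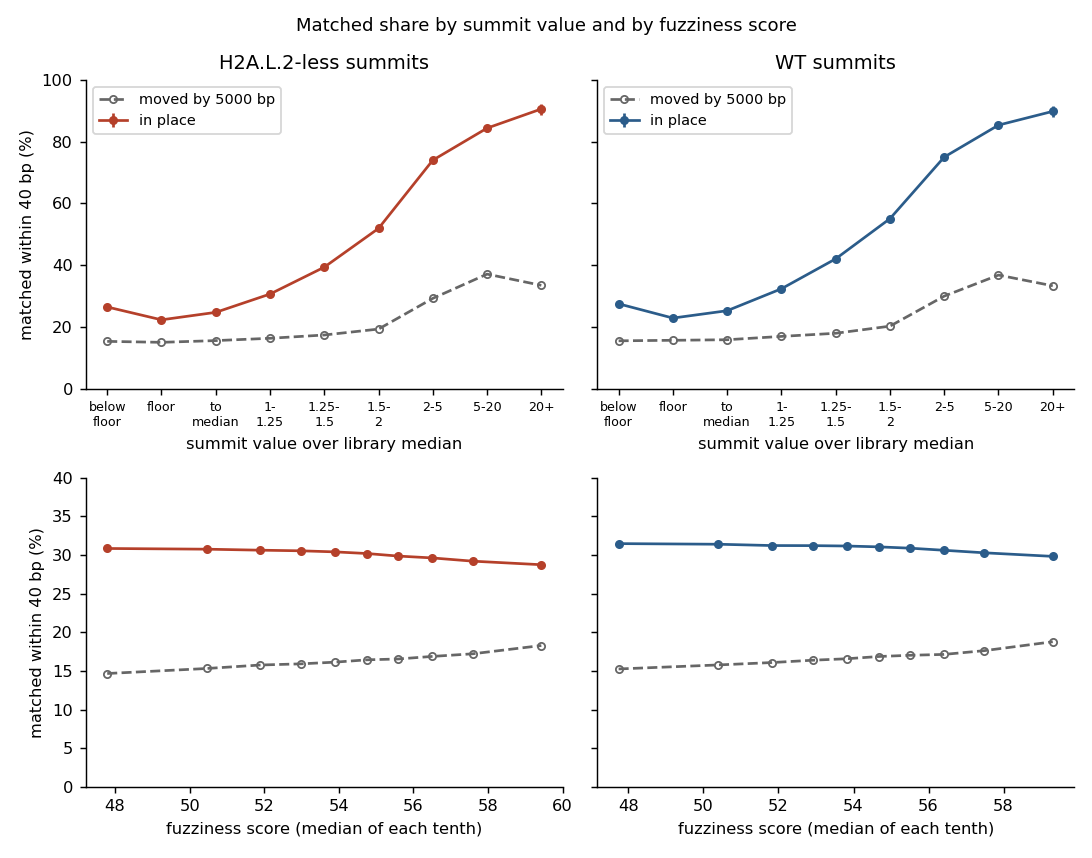
Share of summits matched within 40 bp, by height over the list's median (top) and by fuzziness score in 10 groups of equal size (bottom), for H2A.L.2-less summits (left) and WT summits (right). Bars are 95% Wilson intervals, mostly smaller than the points, and the dashed lines give the share after the other list was moved by 5000 bp. With height the share goes up to 90.5% for H2A.L.2-less and 89.8% for WT summits, and with fuzziness it goes down by about 2 points while the dashed line goes up.

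A tall summit can still be missing from the other list. Among the tallest 1% of each list, 74.0% of 39798 H2A.L.2-less summits and 75.02% of 37719 WT summits were matched. Of the rest, 1001 H2A.L.2-less summits (2.52%) had no WT summit within 140 bp, and 782 WT summits (2.07%) had no H2A.L.2-less summit that close. They were not spread evenly. Between 12000001 and 13000000 on chromosome 13, 27 of 234 such tall H2A.L.2-less summits stood alone, and between 7000001 and 8000000 on chromosome 7, 18 of 194 tall WT summits did, the highest counts in any 1 Mb window for each list.

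Tall summits missing from the other condensing list were often present earlier. Of the 1001 lone H2A.L.2-less summits, 46.8% had a summit of H2A.L.2-less round spermatids at most 40 bp away (interval 43.7% to 49.9%, background 21.7%). In the round spermatids of WT mice the share was 43.6% (40.5% to 46.6%, background 25.2%). Of the 782 lone WT summits, 40.8% were found in round spermatids of H2A.L.2-less mice (37.4% to 44.3%, background 21.5%) and 43.6% in those of WT mice (40.2% to 47.1%, background 24.2%). For lone summits of either genotype, the intervals in the H2A.L.2-less and WT round spermatid lists overlap, while the backgrounds of these lists differ. Lone H2A.L.2-less summits had the higher share and the lower background in the H2A.L.2-less list, so their excess was larger there. For lone WT summits, share and background were both lower in the H2A.L.2-less list. No interval was computed for an excess, and the difference was not tested.

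Fuzziness separated matched from unmatched summits far less. The median score of matched H2A.L.2-less summits was 54.2, against 54.4 for unmatched ones, a difference of -0.112 ± 0.0513 (SD over 19 autosomes) with the same sign on 18 of 19 autosomes. In WT the scores were 54.2 and 54.3, a difference of -0.0757 ± 0.0590 with the same sign on 17 of 19 autosomes. The spread of scores within a list was much larger, with quartiles at 51.9 and 56.5 in H2A.L.2-less and at 51.8 and 56.4 in WT. With the other list moved, the same difference was 0.234 in the H2A.L.2-less list and 0.221 in the WT list, of the opposite sign. When both lists were limited to summits at or above their median height, the difference in place turned positive too, 0.0401 in H2A.L.2-less and 0.0728 in WT.

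Across 10 groups of equal size, from least to most fuzzy, the matched share of H2A.L.2-less summits passed from 30.8% to 28.7%. The background went the other way, from 14.7% to 18.3%, so the excess over it shrank from 16.2 to 10.5 points. In WT the share passed from 31.5% to 29.8%, and the excess from 16.2 to 11.05 points. The score is tied to height, with a Spearman correlation of -0.227 across H2A.L.2-less summits and -0.232 across WT summits, and summits of a list are not independent of each other.

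The relation of matching to fuzziness depended on height. Among H2A.L.2-less summits below the first quartile of height, 19.6% of the least fuzzy and 24.6% of the most fuzzy were matched (background 13.5% and 16.3%). In WT the same groups gave 20.4% and 25.7% (background 14.1% and 16.8%). Among the tallest 10% of H2A.L.2-less summits the shares were 49.5% and 47.7%, which is 32.2 and 21.9 points above their backgrounds. Among the tallest 10% of WT summits they were 51.2% and 49.6%, or 33.4 and 22.6 points above. For low summits the fuzzier ones were matched more often in both genotypes, and for tall ones the least fuzzy exceeded the background by most.

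Matched summits lay in more crowded chromatin. The nearer neighbour in the same list was on average 302.2 bp from a matched and 356.2 bp from an unmatched H2A.L.2-less summit, a difference of -54.0 ± 12.0 bp (SD over 19 autosomes). For WT the distances were 309.4 and 368.5 bp, a difference of -59.2 ± 11.4 bp. Within 1000 bp, matched H2A.L.2-less summits had 4.11 other summits of their list and unmatched ones 3.64, a difference of 0.472 ± 0.0867, and WT summits had 3.97 and 3.48, a difference of 0.492 ± 0.0851. All 4 differences had 1 sign on 19 of 19 autosomes.

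A moved list gave differences of the same sign, smaller for distance and close for number. They are thus not wholly particular to sites that both genotypes shared. After the move, matched summits were still nearer to their neighbours by a difference of -42.9 bp in H2A.L.2-less and -44.9 bp in WT. Their surplus of summits within 1000 bp was 0.457 in H2A.L.2-less and 0.458 in WT, close to the values in place. The matched share of H2A.L.2-less summits was 18.6% with no other summit of the list within 1000 bp and 53.5% with 10 or more, while the background passed from 10.5% to 35.2%. In WT it was 18.8% and 56.6%, with backgrounds of 10.8% and 37.8%.

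Distances among matched summits and among unmatched summits also differed in their most frequent value. Around matched summits, the density of other matched summits of the same list was highest at 180 bp, where it reached 1.34 in H2A.L.2-less and 1.34 in WT. Around unmatched summits, the density of other unmatched summits was highest at 130 bp, with 1.29 in H2A.L.2-less and 1.25 in WT. The density of summits matched after the move, around each other, also peaked at 180 bp, with 1.32 in H2A.L.2-less and 1.33 in WT, the same distance as in place. By distance to the nearer neighbour, the matched share was highest at 200 to 220 bp, with 33.1% in H2A.L.2-less and 34.2% in WT. It was lowest at 1000 bp and over, with 18.7% in H2A.L.2-less and 18.9% in WT.

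Matched summits hardly formed arrays. In the H2A.L.2-less list, the summit after a matched one was matched in 31.7% of cases, against 29.4% after an unmatched one. In the WT list these shares were 32.7% and 30.1%. The order depended on the distance to that next summit. At 150 to 200 bp, 36.0% followed a matched and 31.5% an unmatched summit in H2A.L.2-less, and 37.2% and 32.6% in WT. At 100 to 150 bp it was reversed, with 28.6% and 34.1% in H2A.L.2-less and 30.1% and 35.2% in WT. Summits of the other list are at least 100 bp apart too, which limits how often neighbours this close can both be matched. These shares were not computed with a moved list.

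Most stretches of matched summits were 1 summit long, 69.2% of 791162 in H2A.L.2-less and 68.2% of 779683 in WT. With 30.1% of H2A.L.2-less and 30.9% of WT summits matched, most stretches would be that short without any grouping. Stretches were not computed with a moved list. Stretches of 5 or more numbered 9902 in H2A.L.2-less and 10845 in WT. The longest ran over very high signal near the start of the assembled part of chromosome 9. It held 55 H2A.L.2-less summits from 3000101 to 3010761, with a median height 371 times that of the list. The longest in WT held 39 summits from 3021431 to 3028291, at 316 times the median. How reads with several alignments were treated is not given in the sources used here.

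Long stretches with no match had heights near the median of their list. The longest in WT held 61 summits on chromosome 15 from 8234966 to 8339361, with a median height of 0.94 times that of the list. The H2A.L.2-less list had 55 unmatched summits in a row at nearly the same place, from 8234781 to 8338851. Its longest, 57 summits from 22775996 to 22801901 on chromosome 7, lay in a block described further on.

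In the 1158761 pairs, the height in H2A.L.2-less was compared with the height in WT, each over its list's median. The log2 ratio (H2A.L.2-less over WT) had a median of 0.02, quartiles of -0.18 and 0.24 and an SD of 0.33, and its medians per autosome lay between 0.01 and 0.03. Pairs more than 2-fold apart were rare: 2513 pairs (0.217%) were above a log2 ratio of 1 in H2A.L.2-less and 1691 pairs (0.146%) were below -1. By rank, the heights of a pair were only loosely related, with a Spearman correlation of 0.228 across pairs, and so were their fuzziness scores, at 0.263. The Pearson correlation of log2 heights was higher, at 0.648. With the WT list moved, 628408 H2A.L.2-less summits were still matched, so many pairs can be coincidental, and these were not set apart. Most pairs lie near the floor of both lists, which narrows the range of heights.

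From 1.5 times the median upwards, taller pairs were more alike in height, place and fuzziness. The SD of the log2 ratio was 0.41 among pairs whose mean height was 1.5 to 2 times the median, 0.37 at 2 to 5 times, 0.25 at 5 to 20 times and 0.15 at 20 times and over. The share of pairs on the same base was 18.8% at 1.5 to 2 times the median, 22.4% at 2 to 5 times, 30.6% at 5 to 20 times and 41.1% at 20 times and over. The difference of the fuzziness scores of a pair had an SD of 4.21 over all pairs and 1.57 in the tallest 987. Pairs below the median height had an SD of the log2 ratio of 0.20, which the floor bounds from below in both lists.

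Of the 2513 pairs above a log2 ratio of 1, the fullest 1 Mb windows held 57 each. Of the 1691 pairs below -1, the fullest held 37. Only a small part of the pairs of unequal height was thus gathered in a few places, which were chosen after their values were seen. Their position numbers in other libraries are to be read against the log2 ratio of H2A.L.2-less to WT in the median 1 Mb window, which was 0.04 for condensing nucleosomes, -0.45 for small structures, -0.09 for spermatocytes and -0.12 for round spermatids. On chromosome 11 from 116601151 to 116636631, 56 of 88 pairs were more than 2-fold higher in H2A.L.2-less, with median heights of 536 in H2A.L.2-less and 240 in WT, a median log2 ratio of 1.18. The numbers of positions there were similar, 148 in H2A.L.2-less and 140 in WT. In earlier stages the same stretch was lower in H2A.L.2-less, where the median height of its positions was 2.04 times the list's median in spermatocytes, against 3.83 times in WT. In round spermatids it was 2.10 times in H2A.L.2-less and 3.50 times in WT. Among small structures, it was 2.46 times in H2A.L.2-less and 1.63 times in WT. The stretch was thus ordered one way in both condensing fractions and the other way in both earlier stages. For this and the next stretches, as each group has 1 library, the genotypes cannot be told apart from the mice or libraries used, and the number of genome copies of a stretch was not measured.

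On chromosome 13 from 12887291 to 12987031, 47 of 192 pairs were more than 2-fold higher in H2A.L.2-less, with median heights of 374 in H2A.L.2-less and 240 in WT and a median log2 ratio of 0.66. A second group of 31 pairs followed from 13003001 to 13082631, with a median log2 ratio of 0.68 over 140 pairs. The first stretch held 507 positions in H2A.L.2-less against 310 in WT. It was also fuller in H2A.L.2-less at the stages before, with 352 positions against 250 in WT for spermatocytes and 409 against 243 in WT for round spermatids. Among small structures it held 148 positions in H2A.L.2-less against 140 in WT. This window of chromosome 13 is the one with 27 lone summits among the tallest 1% of H2A.L.2-less.

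On chromosome 7 a run of windows had lower pairs in H2A.L.2-less. From 7406771 to 7496661, 20 of 118 pairs were more than 2-fold lower, with median heights of 238 in H2A.L.2-less and 360 in WT and a median log2 ratio of -0.52. From 10571601 to 10652641, 18 of 114 pairs were, with medians of 240 in H2A.L.2-less and 352 in WT and a log2 ratio of -0.48. Round spermatids had the other order in these stretches, with 269 positions in H2A.L.2-less against 202 in WT in the first and 241 in H2A.L.2-less against 173 in WT in the second. Among small structures the first held 83 positions in H2A.L.2-less against 146 in WT, and the second 71 in H2A.L.2-less and 139 in WT, the order of the condensing nucleosomes.

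The matched and unmatched condensing summits were then looked up in the other 6 lists, to see how often a site had been a nucleosome summit before. Sites shared between the genotypes at the condensing stage were more often occupied earlier. Of the matched H2A.L.2-less summits, 37.3% lay within 40 bp of a summit of H2A.L.2-less round spermatids (background 18.97%), against 28.1% of the unmatched ones (18.4%). In H2A.L.2-less spermatocytes the shares were 38.7% (20.4%) for matched and 29.3% (19.4%) for unmatched summits. The excess over the background was 18.3 points for matched and 9.76 points for unmatched summits in round spermatids, and the difference between them was larger than the SDs of the shares over autosomes, 1.14 points for matched and 0.530 points for unmatched summits.

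Sites found in only 1 genotype exceeded the background by about as much in the earlier lists of the other genotype as in their own. Unmatched H2A.L.2-less summits exceeded the background by 9.76 points in the round spermatid list of H2A.L.2-less mice and by 9.79 points in that of WT mice. Unmatched WT summits exceeded it by 9.63 points in the list of H2A.L.2-less and by 9.83 points in that of WT. These values differed by less than the SDs of the shares over autosomes, which lay between 0.493 and 1.16 points. The differences on each autosome were not examined.

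A site present in both genotypes at both earlier stages was the strictest of these conditions. It was met by 10.8% of matched H2A.L.2-less summits (background 3.63%) and by 6.01% of unmatched ones (3.34%), which is 2.99 times the background for matched and 1.80 times for unmatched summits. For WT summits the shares were 10.9% of matched (3.63%) and 5.97% of unmatched (3.35%), or 2.98 times for matched and 1.78 times for unmatched summits. In at least 1 of the 4 earlier lists, 72.2% of matched and 61.0% of unmatched H2A.L.2-less summits had a counterpart, against 72.2% and 60.8% in WT. The backgrounds here were high, 45.4% for matched and 43.7% for unmatched H2A.L.2-less summits.

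Small structures, the shorter protected fragments of condensing spermatids, followed the same order with less difference. Of H2A.L.2-less summits, 28.1% of matched (background 20.3%) and 22.8% of unmatched (18.4%) coincided with a small structure of H2A.L.2-less mice. Of WT summits, 38.3% of matched (25.8%) and 31.4% of unmatched (23.6%) coincided with a small structure of WT mice.

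**Figure D4:**
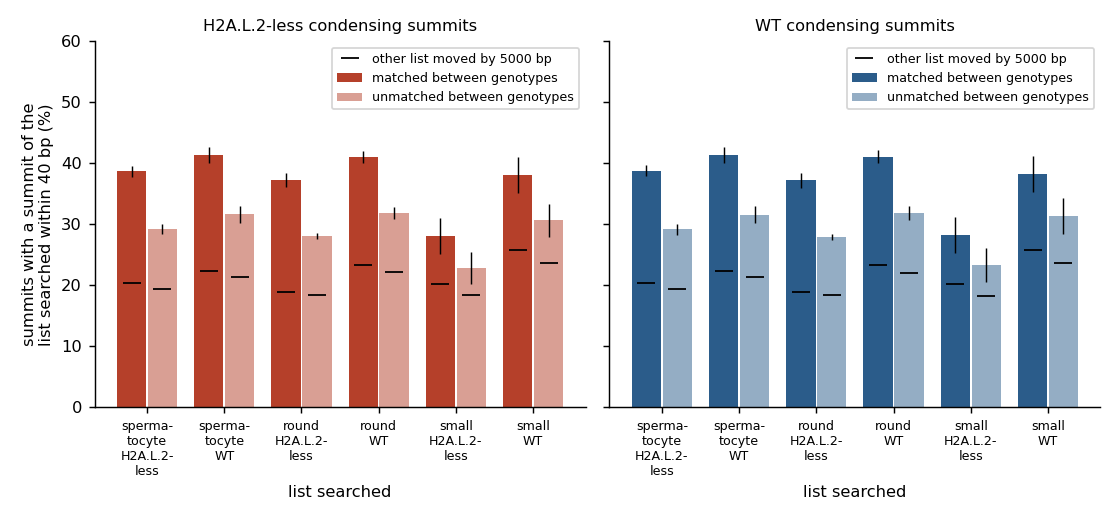
Share of condensing nucleosome summits with a summit of another list within 40 bp, for H2A.L.2-less summits (left) and WT summits (right). Dark bars are summits matched between genotypes, pale bars unmatched ones, error bars are SDs over 19 autosomes, and short lines give the share after the list searched was moved by 5000 bp. Dark bars exceed pale ones for each list searched, for example 37.3% against 28.1% of H2A.L.2-less summits in H2A.L.2-less round spermatids.

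Set beside the earlier stages, the condensing lists had the smallest shares in common. Between genotypes, 56.0% of H2A.L.2-less and 51.5% of WT summits were matched in spermatocytes, and 49.3% of H2A.L.2-less and 43.6% of WT summits in round spermatids. With equal numbers of the highest positions, 3748879 per list, the shares were 30.2% for condensing spermatids, 49.4% for spermatocytes and 41.1% for round spermatids, with backgrounds between 14.9% and 16.3%. This cut was uneven. It took the lowest positions from earlier lists of 4700815 to 5322422 positions, few from the H2A.L.2-less condensing list and none from the WT condensing list. Fuzziness set matched summits apart more at the earlier stages. The difference from unmatched summits was -1.12 in H2A.L.2-less against -1.14 in WT for spermatocytes, and -0.670 in H2A.L.2-less against -1.45 in WT for round spermatids. A fragment size range is given for the condensing libraries only, so differences between stages cannot be told apart from fragment selection, and with 1 library per group and stage they were not tested.

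In position numbers, few windows of 1 Mb differed between the genotypes. In the 2401 windows of 1 Mb in which each list held 500 positions or more, the median log2 ratio (H2A.L.2-less over WT) was 0.04, and ratios are given from here on relative to it. They had an SD of 0.06, and 95.5% of windows lay within 0.1. Only 9 windows (0.375%) were above 0.2 and 7 (0.292%) below -0.2, and chromosome 7 held 4 of the 9 and 4 of the 7. In windows of 100 kb, which hold fewer positions each, 2946 of 23593 (12.5%) were past 0.2 in either direction. The matched share of H2A.L.2-less summits per window had a median of 28.4%, with 90% of windows between 22.6% and 35.6%.

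Windows with many positions had the higher matched share and the lower excess. In the 10% of windows with the fewest WT positions, the median share was 23.5% and the background 7.14%, an excess of 16.6 points. In the 10% with the most WT positions it was 34.6%, with a background of 22.2% and an excess of 12.7 points. A match in a sparse region is thus less often met by a moved list.

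The largest departure in numbers was a single block. The 3 windows with the highest ratio adjoined each other on chromosome 7. The one from 21000001 to 22000000 held 2539 positions in H2A.L.2-less against 1344 in WT (log2 ratio 0.88), the next to 23000000 held 2201 in H2A.L.2-less and 1098 in WT (0.97), and the one to 24000000 held 3149 in H2A.L.2-less and 1723 in WT (0.83). At a finer step of 100 kb, 35 windows in a row were above 0.2, from 20600001 to 24100000. This block of 3.5 Mb, whose limits were set after its values were seen, held 9421 positions in H2A.L.2-less against 5019 in WT, a log2 ratio of 0.87 with 0.30 to 2.15 in its windows. In the 1 Mb before it the numbers were 2516 in H2A.L.2-less and 2429 in WT (ratio 0.01), and in the 1 Mb after it 2438 in H2A.L.2-less and 2271 in WT (0.06).

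Relative to their median windows, the earlier lists showed no surplus of this size. In spermatocytes the block held 3214 positions in H2A.L.2-less against 3092 in WT (log2 ratio 0.15 from the median window), and in round spermatids 4263 in H2A.L.2-less and 4584 in WT (0.01). The flanks of these lists were uneven. In the 1 Mb before the block the ratio was -0.42 in spermatocytes and -0.86 in round spermatids, below the block. In the 1 Mb after it, the ratio was 0.03 in spermatocytes and 0.08 in round spermatids. Small structures gave 4871 in H2A.L.2-less and 5155 in WT, a ratio of 0.37 from their median window. Their ratio was 0.30 in the 1 Mb before the block and 0.06 in the 1 Mb after it. With 1 library per group, whether this block differs between genotypes or between the mice or libraries used cannot be told apart.

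Inside the block H2A.L.2-less summits were closer together and fuzzier than WT summits. The median distance to the nearer neighbour was 180 bp in H2A.L.2-less and 235 bp in WT, and the median fuzziness score 55.5 in H2A.L.2-less and 54.2 in WT. Over all 1 Mb windows, fuzziness and the number of positions had a Spearman correlation of 0.929. These traits of the block therefore cannot be told apart from its higher number of positions. The median height was 212 in H2A.L.2-less, or 1.10 times that of the list, and 204 in WT, or 1.02 times. In the block 25.2% of H2A.L.2-less summits were matched (background 15.2%), against 47.4% of WT summits (28.6%). Of its 2377 pairs, 65.5% were higher in H2A.L.2-less, with a median log2 ratio of 0.15 and quartiles of -0.09 and 0.42. Of the tallest 10% of H2A.L.2-less summits between 23000001 and 24000000, 258 of 968 had no WT summit within 140 bp. Over all autosomes the same held for 21.2% of the tallest 10%, 90484 of 427508 summits.

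**Figure D5:**
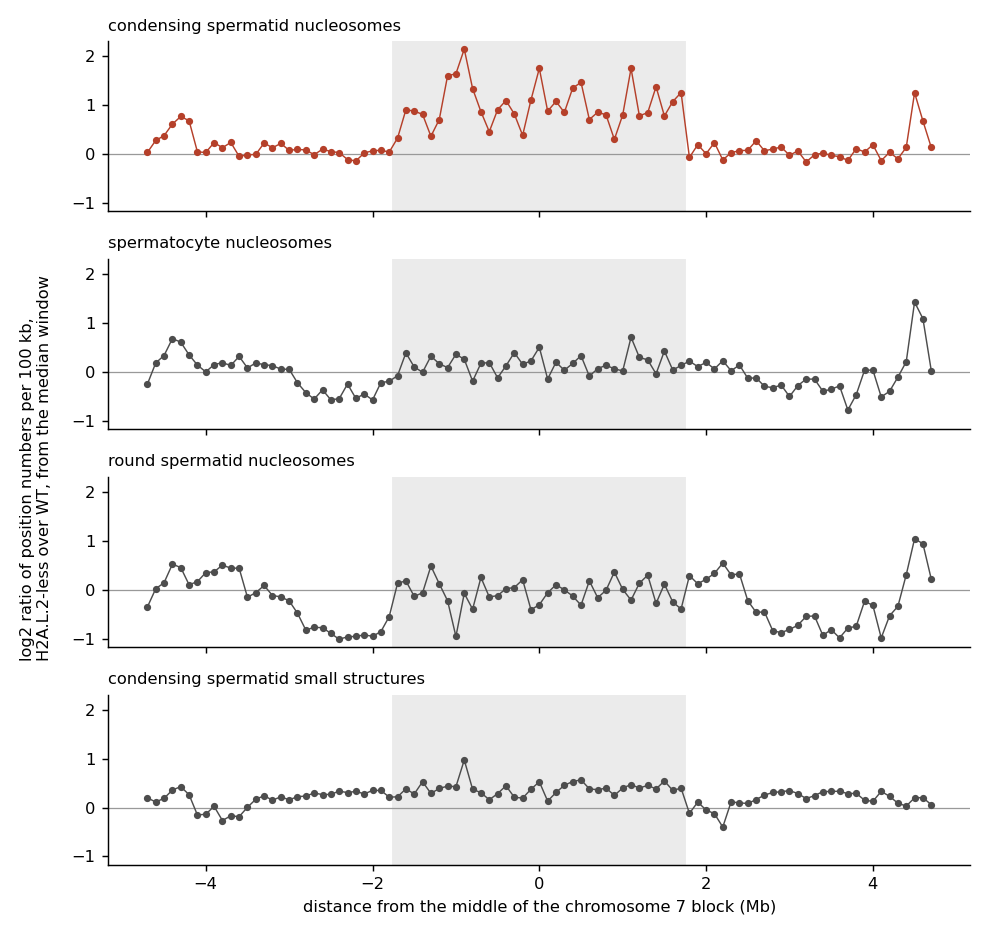
Log2 ratio of position numbers per 100 kb (H2A.L.2-less over WT, from the median window of each library pair) against distance in Mb from the middle of the 3.5 Mb block on chromosome 7, for condensing nucleosomes and the other 3 library pairs. Shading marks the block, where condensing nucleosomes lie at 0.30 to 2.15. Spermatocytes average 0.15, round spermatids 0.01 and small structures 0.37 over the block.

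The 3 windows with the lowest ratio held few positions or lay elsewhere on chromosome 7. On chromosome 7 from 8000001 to 9000000 the H2A.L.2-less list held 505 positions, against 621 in the WT list (-0.34). On chromosome 8 from 5000001 to 6000000 it held 637, against 781 in the WT list (-0.33), and on chromosome 7 from 10000001 to 11000000 it held 1249, against 1490 in the WT list (-0.29). In the last, the median height was 200 in H2A.L.2-less and 224 in WT. There 41.1% of H2A.L.2-less summits (background 19.7%) and 34.4% of WT summits (18.5%) were matched.

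By matched share, the highest windows were tall in both genotypes. On chromosome 1 from 85000001 to 86000000, 68.8% of 1613 H2A.L.2-less and 68.8% of 1614 WT summits were matched (background 44.3% for H2A.L.2-less and 43.99% for WT), with median heights of 768 in H2A.L.2-less and 792 in WT. On chromosome 4 from 146000001 to 147000000 the shares were 59.2% of 4122 H2A.L.2-less and 59.0% of 4131 WT summits (background 40.4% for H2A.L.2-less and 40.98% for WT). On chromosome 13 from 66000001 to 67000000, 58.7% of H2A.L.2-less summits were matched, against a lower background of 24.7%, and 63.3% of WT summits (25.8%).

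The 3 lowest windows were sparse. On chromosome 10 from 102000001 to 103000000, 16.6% of 697 H2A.L.2-less summits were matched (background 4.88%), and on chromosome 17 from 91000001 to 92000000, 16.8% of 577 (3.99%). The third, on chromosome 4 from 112000001 to 113000000, held 1212 positions in H2A.L.2-less against 685 in WT (log2 ratio 0.79), so that 17.2% of H2A.L.2-less summits (6.601%) but 30.5% of WT summits (13.3%) were matched. In round spermatids this window held 1640 positions in H2A.L.2-less against 1278 in WT (0.47), and in spermatocytes 1172 in H2A.L.2-less and 1118 in WT (0.16).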

How the data were processed

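The deposited lists give, per the file headers, a start, end, summit, summit value and fuzziness score per position. The summit value deposited by the authors is a coverage signal in whole multiples of 4, with no scaling to depth apparent. The deposited fuzziness score was computed by the authors. Bowtie2 2.2.9, deepTools 2.2.4 and mm9 are named in the submitters' processing notes. Per the series' labels, samples had 207000000 to 753000000 reads each over 3 runs, joined once aligned. The depth of each library, the caller's version and its thresholds are not given in the sources used here.

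Computed here, with Python 3.11.15, numpy 2.4.6, pandas 2.3.3, scipy 1.17.1 and matplotlib 3.10.9: nearest summits, matches within 40 bp, backgrounds with the other list moved by 5000 bp, neighbours in the same list, numbers within 1000 bp, distance curves in 10 bp bins and windows of 1 Mb. Samples were grouped by title. Ties at the cut for equal numbers were drawn with a fixed seed. The matching code was tested on simulated data. Named windows had the 3 highest or 3 lowest values by ratio of position numbers and by matched share of H2A.L.2-less summits. Other regions were chosen after their values were seen. The comparison and its settings were chosen with earlier results of these data known. No genes are named and no sequences shown, since the annotation at hand is of another build. Positions on X, Y and mitochondrial DNA were not used.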

Additional observations from a re-analysis of the deposited data

Results flagged for a closer look

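Among the windows named by the stated rule, a pair had a genotype ratio of position numbers past 0.2 in one direction in condensing nucleosomes and past 0.2 in the other in round spermatids, each relative to the median window of its library pair. On chromosome 8 from 5000001 the log2 ratio (H2A.L.2-less over WT) was -0.3315 in condensing nucleosomes and 0.4228 in round spermatids. On chromosome 7 from 10000001 it was -0.292 in condensing nucleosomes and 0.41 in round spermatids. A round spermatid ratio of this size was not particular to these windows. The 3 named windows with the lowest matched share stood at 0.3549 to 0.4748 in round spermatids, with 0.02387 to 0.7858 in condensing nucleosomes. The 3 with the highest ratio in condensing nucleosomes stood at -0.02187 to 0.04376 in round spermatids. A window outside that rule, on chromosome 7 from 20000001, stood at 0.2981 in condensing nucleosomes and -0.5516 in round spermatids. With 1 library per group, the differences between stages were not tested, and a fragment size range is stated for the condensing stage only.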

How the results depend on the processing

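No paired analysis was possible because each group has 1 library, whose replicate number only follows the order of deposit. No replicate could be left out for the same reason. Matching within 20 bp gave shares of 19.3% for H2A.L.2-less and 19.84% for WT summits, and within 73 bp 43.36% for H2A.L.2-less and 44.51% for WT. Summits at or above the median height gave 22.61% for H2A.L.2-less and 24.97% for WT. Fewer summits are then left to match, and the background of these shorter lists was not computed. Equal numbers gave 30.23% for either list, and lists without the highest 0.1% of positions 30.01% for H2A.L.2-less and 30.84% for WT. The background lay between 15.75% and 16.66% for H2A.L.2-less and 16.23% and 17.1% for WT with moves of 2000 to 50000 bp, which were chosen after the data were seen.

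The height log2 ratio of matched to unmatched summits was 0.1155 in H2A.L.2-less and 0.05658 in WT within 20 bp. As heights are whole multiples of 4, this ratio of medians moves only in coarse steps. The fuzziness difference was -0.2443 in H2A.L.2-less and -0.2062 in WT within 20 bp. It turned positive, to 0.0401 in H2A.L.2-less and 0.07275 in WT, among summits at or above the median height, and the cause was not tested. With those summits the neighbour distance differed by -121.2 bp in H2A.L.2-less and -141.3 bp in WT, the number within 1000 bp by 0.5895 in H2A.L.2-less and 0.5867 in WT, and the SD of pair heights was 0.2899. Within 5000 bp, the number of other summits differed by 1.966 in H2A.L.2-less and 1.982 in WT, less than the 3.019 in H2A.L.2-less and 2.982 in WT given by a moved list. Of unmatched H2A.L.2-less summits, 17.49% were found in H2A.L.2-less round spermatids within 20 bp. The H2A.L.2-less share of round over condensing spermatids was 19.25 points higher, and 14.86 within 20 bp and 10.89 with equal numbers. The cut to equal numbers took more of the lowest positions from the round spermatid lists. Windows past 0.2 numbered 16 at 1 Mb and 2946 of 23593 at 100 kb, where 1437 were higher and 1509 lower and fewer positions stand behind a ratio; with equal numbers there were 17. In all, 11 of 44 values, the count of 17 included, moved by less than their spread over autosomes or, for counts, by less than 1.5 times. Another 25 moved by more, as did 6 backgrounds with other moves, and 2 changed sign. For shares the limit was the counting error, which is narrow. Few summits are listed below the floor, so an unmatched summit can be a weaker one that the other list leaves out.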
